A study of Rattus norvegicus with 6 samples.

Results

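The genes described here are those of vascular endothelial growth factor (VEGF) signalling and of the endothelium: the ligands *Vegfa*, *Vegfb*, *Vegfc* and *Angpt2*, the receptors *Kdr*, *Flt1* and *Tek*, and the endothelial markers *Pecam1*, *Vwf* and *Nos3*. They were chosen by symbol, and rows of the array were matched to them through the RefSeq accession of each row. Of the 10 genes, 7 had a matched row among the 26419 rows of the array, with 1 row each, and *Angpt2*, *Tek* and *Vwf* were not analysed here. The samples were skeletal muscle (soleus with gastrocnemius) of male Wistar rat pups at an age of 1 day, with no growth restriction imposed on either group. Group LBW held 3 pups of lower birth weight, from percentiles 5 to 25. Group ABW held 3 newborn control pups of average birth weight, from percentiles 25 to 75 by their sample labels and 50 to 75 by the treatment protocol. The labels call the pups of a group biological replicates, and whether any shared a litter is not given in the sources used here, so that p-values measure the spread between these pups. RNA of each pup was hybridized to a separate single-colour NimbleGen array, and values are the authors' normalized log2 signals.

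VEGF ligands are secreted by muscle fibres and other tissue cells and act on receptor tyrosine kinases of endothelial cells, where they drive sprouting, survival and permeability of capillaries. *Kdr* is the main signalling receptor for VEGF-A, *Flt1* binds VEGF-A, VEGF-B and placental growth factor and can act as a decoy, and VEGF-C and VEGF-D act mainly on *Flt4* of lymphatic endothelium. In skeletal muscle, the capillary bed formed in this way supplies oxygen, glucose and insulin to the fibres.

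The arrays were compared before the genes were. Correlations between pups of 1 group ran from 0.9872 to 0.9942 across rows, and no arrays were identical. LBW 2 correlated better with ABW 1 (0.9925) and ABW 2 (0.9916) than with LBW 1 (0.9913) or LBW 3 (0.9872). Markers of skeletal muscle fibres differed little between the groups, with 0 of 16 measured genes past the threshold described below and a median log2 fold change of 0.04. Of the markers of bone, several of which the study picked on these pups, 7 of 13 were higher in LBW past that threshold, a count that was 11 without LBW 2, 3 without LBW 1, 4 without LBW 3 and 3 by the methods' test. Their mean log2 level was 8.29 to 11.29 in LBW and 7.80 to 8.04 in ABW pups. By pup, the bone list averaged 2.63, 0.38 and 3.38 above the ABW mean in LBW 1, 2 and 3. Of 8 neutrophil genes, 4 were higher past the threshold, where 2.38% of all rows were higher. These were *Mmp8*, *S100a9*, *S100a8* and *Retnlg*, all of which the study picked on these pups. The others, *Cxcr2*, *Fcnb*, *Lcn2* and *Prtn3*, did not pass, with log2 fold changes of 0.93, 0.19, 0.12 and -0.07. The list had a mean level of 8.30 to 9.47 in LBW against 7.75 to 7.89 in ABW pups. In a tissue sample, fewer cells of a type and less RNA per cell cannot be told apart.

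Each gene was tested with limma comparing the mean log2 signals of LBW and ABW pups. The threshold of the study's methods was an unadjusted p under 0.05 with at least a 1.5-fold difference up or down. It was passed by 4.27% of the 26299 rows tested, 2.38% higher and 1.89% lower in LBW, and by 0 of the 7 VEGF and endothelial genes. An unadjusted p under 0.05 alone was reached by 12.4% of all rows and by 1 of the 7 genes, *Vegfc*. After Benjamini-Hochberg adjustment over all rows, 0 rows had an adjusted p under 0.05 by limma, the smallest being 0.214, and the 7 genes ran from 0.290 to 0.918. The methods' 2-tailed test on the same values also called 0 of the 7. Of the 7 genes, 4 were higher and 3 lower in LBW on average, while 44.4% of all rows were higher and 55.6% lower. Their median log2 fold change was 0.06, against -0.02 over all rows.

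**Figure D1:**
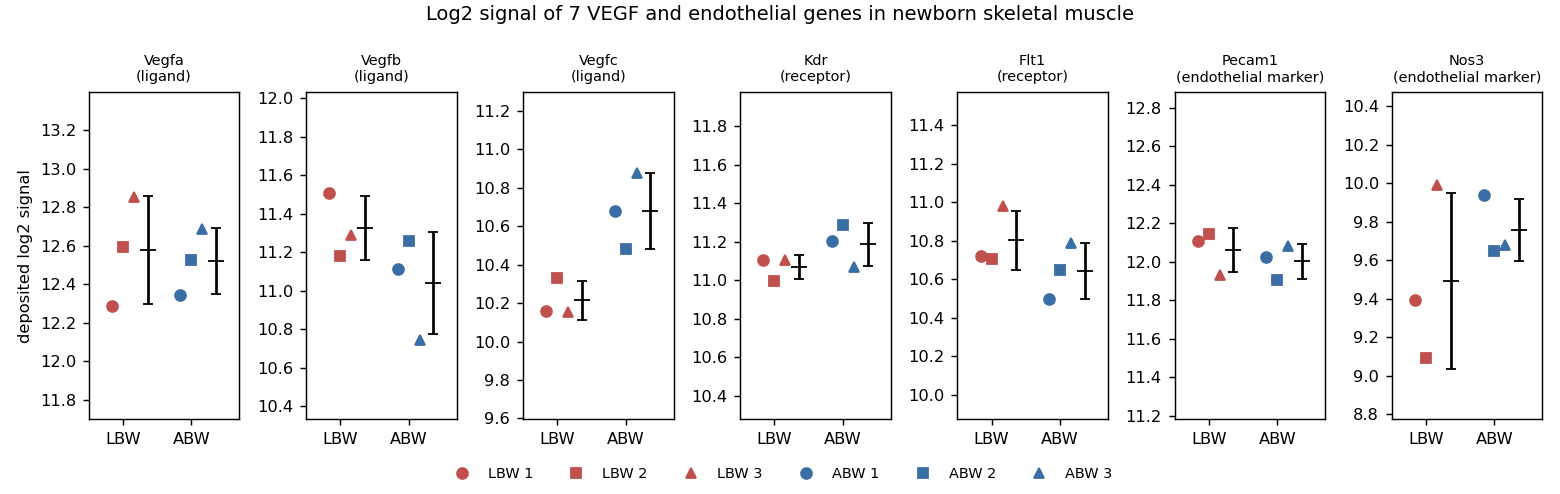
Deposited log2 signal (vertical axis, 1 panel per gene, each spanning the same height) in the 3 LBW (red) and 3 ABW (blue) pups, with the symbol giving the pup number and the black bar the group mean ± SD. The groups overlap in 6 panels, and in the *Vegfc* panel all LBW pups lie below all ABW pups.

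Among the ligands, *Vegfc*, the growth factor of lymphatic vessels, differed most. *Vegfc* (NM_053653) was at 10.16, 10.33 and 10.15 in LBW 1, 2 and 3 and at 10.68, 10.48 and 10.88 in ABW 1, 2 and 3 on the log2 scale. Every LBW pup lay below every ABW pup, and the nearest pups, LBW 2 and ABW 2, were 0.15 apart. Groups that did not overlap were found in 17.4% of all rows, 10.1% with LBW lower and 7.27% with LBW higher. LBW pups averaged 10.21 ± 0.10 and ABW pups 10.68 ± 0.20 (SD, n = 3 each), a log2 fold change of -0.46 (SE 0.13, 95% interval -0.77 to -0.16) with an unadjusted p of 0.00873 and an adjusted p of 0.290 by limma. An exact permutation test of the 6 values gave a 2-sided p of 0.1, the smallest that 3 pups against 3 allow. As a fold change this is 0.725, short of the threshold of 1.5, and a larger absolute log2 fold change was seen in 9.4% of all rows. When single pups were left out, *Vegfc* stayed between -0.56 (without ABW 2) and -0.37 (without ABW 3), with unadjusted p between 0.00474 and 0.0303 by limma. LBW 2, the LBW pup with the lowest level of bone markers, was at 10.33, and without it the log2 fold change was -0.52.

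*Vegfb*, a ligand of *Flt1* that is abundant in oxidative muscle, lay on the other side. *Vegfb* (NM_053549) was at 11.51, 11.18 and 11.29 in the LBW pups and at 11.11, 11.26 and 10.74 in the ABW pups. ABW 3 was the lowest of the 6 pups, and ABW 2 lay within the LBW values. LBW pups were higher by 0.29 on average (limma, SE 0.16, 95% interval -0.10 to 0.67, adjusted p = 0.521). Without ABW 3 it was 0.14. A difference of 1.5-fold upwards therefore lies within the interval, and a difference of 1.5-fold downwards lies outside it.

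*Vegfa*, the principal angiogenic and hypoxia-induced ligand, was nearly even between the groups. *Vegfa* (NM_031836) was at 12.29, 12.59 and 12.85 in LBW 1, 2 and 3 and at 12.34, 12.53 and 12.69 in the ABW pups. LBW pups held both the lowest and the highest value, and the ABW pups lay between them. LBW over ABW was 0.06 on the log2 scale (limma, SE 0.17, 95% interval -0.34 to 0.46, adjusted p = 0.918), so that a 1.5-fold difference in either direction lies outside the interval. The sign turned when LBW 3 (-0.08) or ABW 1 (-0.03) was left out and with array weights (-0.02). LBW 1, where the bone list stood 2.63 above ABW, had the lowest *Vegfa* of all 6 pups, and LBW 3, where it stood 3.38 above, had the highest.

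*Vegfb* and *Vegfc* were also set side by side within each pup, a pair picked after their values were seen. Expressed per pup relative to the ABW means, *Vegfb* minus *Vegfc* was 0.99, 0.49 and 0.77 in LBW 1, 2 and 3. In ABW 1, 2 and 3 it was 0.07, 0.42 and -0.49. The LBW pups were all above the ABW pups, with LBW 2 and ABW 2 close together. No test was made of this difference because the pair was chosen on it.

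The stretches upstream of the annotated start of these ligands are shown because the ligands are those of the 7 genes with the largest and the smallest absolute log2 fold change, *Vegfc* and *Vegfa*, and the one between them, *Vegfb*. They are taken from RefSeq start windows of the build GRCr8, which hold 6 of the 7 genes, and are cut where another annotated transcript of the gene begins. Capitals mark the ETS core GGAA, which endothelial ETS factors bind, the hypoxia response element core ACGTG and the GC box GGGCGG, each searched on both strands, and no matches overlapped. *Vegfc* is at chr16:44560888-44561137, minus strand, *Vegfb* at chr1:213607255-213607402, minus strand, and *Vegfa* at chr9:22452604-22452853, plus strand, and the sequences run 5′ to 3′ towards the start.
Vegfc: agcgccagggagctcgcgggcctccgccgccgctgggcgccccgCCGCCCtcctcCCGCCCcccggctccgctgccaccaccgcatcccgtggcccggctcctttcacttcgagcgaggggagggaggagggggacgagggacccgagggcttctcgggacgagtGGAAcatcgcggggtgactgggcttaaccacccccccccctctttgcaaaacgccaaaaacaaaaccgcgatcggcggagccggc
Vegfb: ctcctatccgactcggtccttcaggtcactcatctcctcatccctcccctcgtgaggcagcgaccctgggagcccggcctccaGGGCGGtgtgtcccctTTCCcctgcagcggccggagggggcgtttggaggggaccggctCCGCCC
Vegfa: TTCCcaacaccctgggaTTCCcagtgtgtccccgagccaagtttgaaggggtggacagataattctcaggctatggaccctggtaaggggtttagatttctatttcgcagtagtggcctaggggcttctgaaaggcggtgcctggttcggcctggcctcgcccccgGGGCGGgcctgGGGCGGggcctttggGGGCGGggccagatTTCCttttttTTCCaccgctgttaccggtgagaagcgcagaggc
The *Vegfa* stretch of 250 bases held 4 matches to GGAA and 3 to GGGCGG, and the *Vegfc* stretch of the same length held 1 and 2. Of all 33469 start windows, 93.2% hold GGAA and 30.5% hold GGGCGG in the same 250 bases. The *Vegfb* stretch of 148 bases held 1 match to GGAA and 2 to GGGCGG, where 80.9% and 16.2% of all windows hold them at that length. ACGTG was found in none of the 3, and in 16.6% of all windows of 250 bases. These are matches of letters in these windows only.

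The VEGF receptors differed little. *Kdr* (NM_013062), which carries most of the VEGF-A signal in endothelium, was at 11.10, 10.997 and 11.10 in LBW and at 11.20, 11.29 and 11.07 in ABW pups. ABW 3 lay among the LBW pups, LBW 2 was the lowest and ABW 2 the highest. *Kdr* had a log2 fold change of -0.12 (limma, SE 0.09, 95% interval -0.34 to 0.11, adjusted p = 0.652), the smallest standard error of the 7 genes. In fold terms the interval runs from 0.788 to 1.08. *Flt1* (NM_019306), the receptor shared by VEGF-A, VEGF-B and placental growth factor, was at 10.72, 10.71 and 10.98 in LBW and at 10.50, 10.65 and 10.79 in ABW pups. LBW 3 was the highest and ABW 1 the lowest, and ABW 3 lay among the LBW pups. Its log2 fold change was 0.16 (limma, SE 0.12, 95% interval -0.13 to 0.45, adjusted p = 0.641). For both receptors a 1.5-fold difference in either direction lies outside the interval.

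The upstream stretch of *Kdr*, at chr14:32571813-32572030, plus strand, is shown as that of the gene with the smallest standard error, with the same motifs in capitals.
Kdr: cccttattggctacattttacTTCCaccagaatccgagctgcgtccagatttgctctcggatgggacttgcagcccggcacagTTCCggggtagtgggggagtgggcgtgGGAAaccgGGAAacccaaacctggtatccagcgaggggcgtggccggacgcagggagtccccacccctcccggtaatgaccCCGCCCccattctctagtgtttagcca
Its 218 bases held 4 matches to GGAA, 1 to GGGCGG and none to ACGTG, where 90.7%, 27.0% and 14.5% of all windows of this length hold at least 1.

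The endothelial markers gave 1 even and 1 uneven gene. *Pecam1* (NM_031591), the adhesion molecule CD31 found at endothelial junctions, on platelets and on some leukocytes, was at 12.11, 12.15 and 11.93 in LBW and at 12.02, 11.90 and 12.08 in ABW pups. LBW 1 and LBW 2 lay above all ABW pups, while LBW 3 lay among them. Their difference was a log2 fold change of 0.06 (limma, SE 0.10, 95% interval -0.18 to 0.30, adjusted p = 0.850), or 0.882 to 1.23 in fold terms. *Nos3* (NM_021838), the endothelial nitric oxide synthase, was at 9.39, 9.09 and 9.99 in LBW 1, 2 and 3 and at 9.94, 9.65 and 9.68 in the ABW pups. LBW 1 and LBW 2 were below all ABW pups, and LBW 3 was above them all. LBW pups averaged 9.49 ± 0.46 and ABW pups 9.76 ± 0.16 (SD, n = 3 each). The log2 fold change of *Nos3* was -0.26 (limma, SE 0.23, 95% interval -0.82 to 0.29, adjusted p = 0.689), and a 1.5-fold fall lies within this interval. It rested on single pups, since it was -0.51 without LBW 3 (unadjusted p = 0.0152 and adjusted p = 0.276 by limma) and -0.07 without LBW 2.

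**Figure D2:**
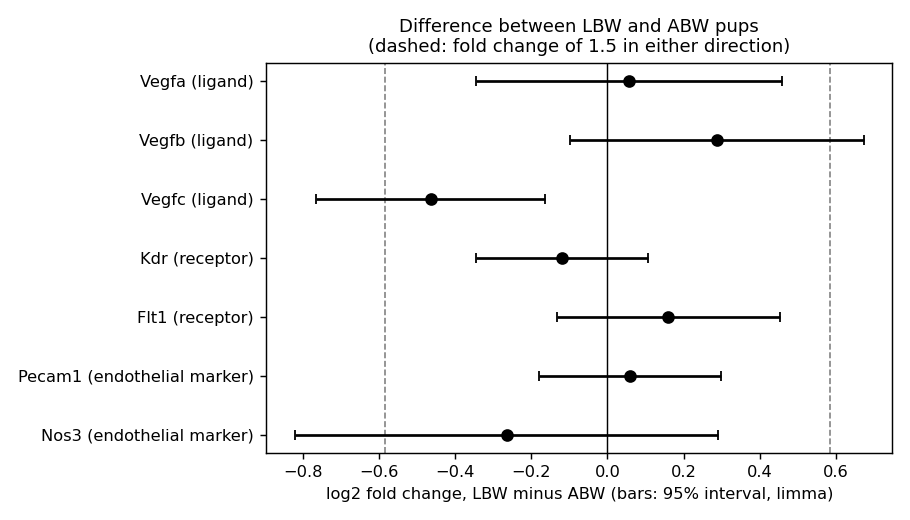
Log2 fold change of LBW over ABW (horizontal axis) with its 95% interval by limma for each of the 7 genes, and dashed lines at a fold change of 1.5 in either direction. The intervals of *Vegfa*, *Kdr*, *Flt1* and *Pecam1* lie within the dashed lines, and that of *Vegfc* alone leaves out 0.

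Ligands were then set beside receptors and endothelial markers, as means over the genes of a role relative to the ABW mean. The 3 ligands averaged -0.09, -0.04 and 0.02 in LBW 1, 2 and 3, and -0.03, 0.01 and 0.02 in the ABW pups. The receptors *Kdr* and *Flt1* averaged -0.0038, -0.06 and 0.13 in LBW and -0.07, 0.05 and 0.01 in ABW pups. *Pecam1* and *Nos3* averaged -0.13, -0.26 and 0.08 in LBW and 0.10, -0.10 and 0.0012 in ABW pups. The groups overlapped in all 3 roles. The mean differences between LBW and ABW were -0.04 for ligands, 0.02 for receptors and -0.10 for endothelial markers, and each was smaller than the SD between LBW pups (0.06, 0.10 and 0.17). The difference between receptors and ligands within a pup was 0.09, -0.02 and 0.11 in LBW and -0.03, 0.04 and -0.01 in ABW pups, again with overlap. LBW 3 had the highest value of 3 of the 7 genes, *Vegfa*, *Flt1* and *Nos3*, and LBW 2 had the lowest value of 2, *Kdr* and *Nos3*.

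Other genes of the VEGF and angiopoietin pathway were taken from a list, of which 19 had a row. Of these, 1 was lower and 0 were higher in LBW past the threshold of the study's methods, where 4.27% of all rows passed and 1.89% were lower, and the median log2 fold change was 0.02. The gene that passed was *Vegfd* (NM_031761), the other ligand of lymphatic endothelium. It was at 11.16, 11.77 and 10.81 in LBW and at 11.63, 12.16 and 12.35 in ABW pups. LBW 1 and LBW 3 were below all ABW pups, while LBW 2 was above ABW 1. The log2 fold change of *Vegfd* was -0.80 (limma SE 0.29, adjusted p = 0.354), a fold change of 0.576. It no longer passed the threshold without LBW 1 (-0.75), LBW 3 (-0.58), ABW 2 (-0.74) or ABW 3 (-0.65), nor by the methods' test. Adipocyte markers were lower in LBW too, for 13 of 14 with a row, 4 of them past the threshold, with a median of -0.67. Of all rows, 55.6% were lower, and 1.89% were lower past the threshold. The 4 are among the genes the study picked on these pups, and 0 of the list passed by the methods' test. Relative to the ABW mean the adipocyte markers averaged -0.42, -0.40 and -1.31 in LBW 1, 2 and 3 and -0.56, 0.41 and 0.15 in ABW 1, 2 and 3. LBW 3 and ABW 1 were the lowest of their groups in this list and in *Vegfd*. LBW 1 and LBW 2 lay close together in the list but at 11.16 and 11.77 in *Vegfd*. ABW 2 was the highest pup in the list and ABW 3 in *Vegfd*. A link between the list and *Vegfd* was not tested.

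The receptor of both lymphatic ligands, *Flt4* (NM_053652), and the *Flt1* ligand *Pgf* (NM_053595), placental growth factor, are named after their values were seen, as are the neuropilins and *Angpt1*. *Flt4* was at 8.84, 8.37 and 8.40 in LBW and at 8.82, 9.13 and 8.97 in ABW pups. LBW 1 stood within the ABW values and the other LBW pups below them. Its log2 fold change was -0.44 (SE 0.16, unadjusted p = 0.0296 and adjusted p = 0.354 by limma), and without LBW 1, at -0.59, it passed the threshold of the study's methods. Its unadjusted p was above 0.05 without LBW 2 (0.0907), LBW 3 (0.0867), ABW 2 (0.0951) or ABW 3 (0.0685), by the methods' test (0.0688), with the replicate number as a block (0.0625) and with an intensity trend (0.0599). *Pgf* was at 9.88, 9.77 and 9.68 in LBW and at 10.07, 10.30 and 10.02 in ABW pups, with no overlap. Its log2 fold change was -0.35 (SE 0.11, unadjusted p = 0.0171 and adjusted p = 0.315 by limma), with an unadjusted p of 0.0510 without LBW 3 and 0.0569 without ABW 2. The co-receptors of the VEGF receptors, the neuropilins, had log2 fold changes of -0.12 for *Nrp1* (limma SE 0.12, adjusted p = 0.722) and 0.21 for *Nrp2* (limma SE 0.28, adjusted p = 0.811). *Nrp2* was at 10.97 in LBW 3 and at 9.79 in LBW 2, the highest and the lowest of the 6 pups. *Angpt1*, the ligand that activates *Tek*, had a log2 fold change of -0.13 (limma SE 0.14, adjusted p = 0.753). The genes of the list with the highest array signal in ABW pups, *Ppp3ca* of the calcineurin phosphatase and the kinase *Akt1*, had log2 fold changes of -0.01 and 0.19.

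**Figure D3:**
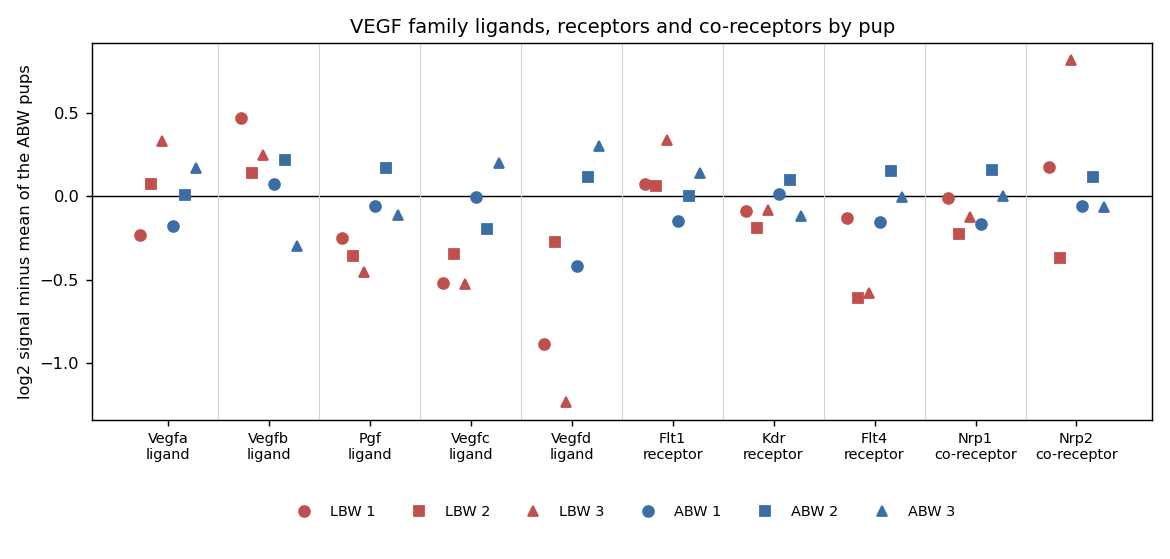
Log2 signal of VEGF family ligands, receptors and co-receptors in each pup relative to the mean of the 3 ABW pups (vertical axis, LBW red, ABW blue, symbol by pup number). For *Vegfc* and *Pgf* the LBW pups lie below all ABW pups, for *Vegfd* and *Flt4* 2 of 3 do, and for *Vegfa*, *Flt1* and *Kdr* the groups overlap.

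Lymphatic vessels could be followed only in part, because the defining genes *Lyve1* and *Prox1* had no matched row. Of the 4 genes of the list with a row, 1 was lower and 0 were higher past the threshold, where 1.89% of all rows were lower, and the median log2 fold change was -0.25. *Flt4*, described above, is 1 of the 4. *Ccl21* (NM_001008513), a chemokine made by lymphatic endothelium and lymphoid stroma, was at 11.27, 10.85 and 11.55 in LBW and at 11.48, 12.08 and 12.00 in ABW pups. LBW 3 overlapped with ABW 1. Its log2 fold change was -0.63 (limma SE 0.23, adjusted p = 0.360), and it did not pass the threshold without LBW 1 (-0.65), LBW 2 (-0.44), ABW 2 (-0.51) or ABW 3 (-0.55), nor by the methods' test. *Pdpn*, a membrane glycoprotein of lymphatic endothelium and of many stromal cells, had a log2 fold change of -0.07 (limma, adjusted p = 0.817). *Reln*, the last of the 4, had one of 0.03 (limma, adjusted p = 0.970), and the groups overlapped in both.

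Further surface and junction genes of endothelial cells were taken from a list, of which *Cdh5*, *Cd34* and *Robo4* had no matched row. None of the 22 with a row passed the threshold of the study's methods in either direction by limma (1 did without LBW 1), and the log2 fold changes ran from -0.44 to 0.39 with a median of -0.07. For 14 of the 22 the 95% interval lay within a fold change of 1.5 both ways. *Mcam* and *Ramp2*, with the highest array signal of the list in ABW pups, *Ramp2* being a partner of the adrenomedullin receptor, had log2 fold changes of 0.04 and -0.09. Without the fold change criterion, 3 of the 22 had an unadjusted p under 0.05, all lower in LBW, where 6.73% of all rows were lower at that p. Named after their values were seen, they were *Procr*, the endothelial protein C receptor (-0.44, limma SE 0.13, adjusted p = 0.305), *Esam*, an endothelial adhesion molecule (-0.29, limma SE 0.08, adjusted p = 0.302), and *Emcn*, the sialomucin endomucin of capillary and venous endothelium (-0.29, limma SE 0.11, adjusted p = 0.370). *Esam* was at 10.89, 10.76 and 10.73 in LBW and at 11.11, 11.06 and 11.09 in ABW pups, with no overlap.

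Of the endothelial transcription factors and Notch genes, 14 had a row and 0 passed the threshold by limma (1 at an unadjusted p under 0.05), with a median log2 fold change of -0.06. *Fli1* (NM_001017381), an ETS factor of endothelial and blood cells, was the 1 gene at that p. It was at 11.89, 11.91 and 12.16 in LBW and at 12.40, 12.62 and 12.61 in ABW pups, with no overlap. The log2 fold change of *Fli1* was -0.56 (SE 0.12, unadjusted p = 0.00231 and adjusted p = 0.2503 by limma), and it passed the threshold without LBW 3 (-0.65), without ABW 1 (-0.63) and with array weights (-0.61). *Erg*, the related ETS factor that is more restricted to endothelium and is likewise named after its values were seen, was at 11.55, 11.21 and 11.66 in LBW and at 11.35, 11.66 and 11.50 in ABW pups. It had a log2 fold change of -0.03 (limma SE 0.15, adjusted p = 0.953), and the groups overlapped.

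Around *Nos3*, 14 genes of nitric oxide synthesis and signalling had a row, and 0 passed the threshold by limma, with 1 at an unadjusted p under 0.05, *Nos1*. Their median log2 fold change was -0.20. The count past the threshold was 1 with the filter on dim rows or an intensity trend, and 2 without LBW 2 or without ABW 1. The largest change was that of *Gch1*, named after its values were seen, at -0.83 (SE 0.36, unadjusted p = 0.0563 and adjusted p = 0.421 by limma). *Gch1* was at 7.01, 7.86 and 6.36 in LBW and at 8.09, 7.80 and 7.83 in ABW pups, with overlap. *Nos1* (NM_052799), the neuronal synthase that skeletal muscle fibres express at the sarcolemma, is named after its values were seen. It was at 8.14, 8.04 and 8.21 in LBW and at 7.62, 7.52 and 7.53 in ABW pups, and every LBW pup was above every ABW pup by more than the SD within either group. Its log2 fold change was 0.57 (SE 0.09, limma, unadjusted p = 0.000428, adjusted p = 0.214), a fold change of 1.49, just under the threshold, which it passed without LBW 2 (0.62) or without ABW 1 (0.61). *Cav1*, the caveolin that binds the endothelial synthase, stood at -0.14 (limma, adjusted p = 0.610). *Edn1*, the endothelial vasoconstrictor endothelin that opposes nitric oxide, was past the threshold with a log2 fold change of -1.58 (limma SE 0.15, adjusted p = 0.214). The study lists *Edn1* among genes it picked on these pups.

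Genes of mural cells, which wrap the endothelium, mostly differed little. Of 12 genes of pericytes and vascular smooth muscle with a row, 0 passed the threshold by limma, 1 had an unadjusted p under 0.05, and the median log2 fold change was 0.02. That gene, named after its values were seen, was *Cspg4*, at 9.52, 9.34 and 9.55 in LBW and 9.07, 9.22 and 9.01 in ABW pups, with no overlap. Its log2 fold change was 0.37 (limma SE 0.10, adjusted p = 0.292). *Acta2* and *Tagln*, contractile genes of smooth muscle, had log2 fold changes of 0.02 and 0.07. Of the other angiogenic factors and inhibitors, 1 of 20, *Edn1*, passed the threshold, where 4.27% of all rows did, and the median log2 fold change was -0.04. At an unadjusted p under 0.05 by limma, 2 were lower and 3 higher, where 12.4% of all rows reached it in either direction. Beside *Edn1* these were, named after their values were seen, *Aplnr* (-0.41, adjusted p = 0.275 by limma), *Ccn1* (0.33), *Fgf1* (0.30) and *Pdgfa* (0.28), each with no overlap.

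Among genes of the hypoxia response, of which *Vegfa* is a classical target, 3 of 21 with a row were higher and 0 were lower in LBW past the threshold, where 2.38% of all rows were higher, and the median log2 fold change was 0.08. *Hif3a* (NM_022528), the third hypoxia-inducible factor subunit, was at 10.56, 10.34 and 10.83 in LBW and at 9.62, 9.20 and 8.96 in ABW pups, with a log2 fold change of 1.32 (limma SE 0.20, adjusted p = 0.214). It is also among the genes the study picked on these pups. *Slc2a1*, the basal glucose transporter, had a log2 fold change of 0.63 (limma SE 0.18, adjusted p = 0.304), and *Egln3*, an oxygen-sensing prolyl hydroxylase, one of 0.60 (limma SE 0.14, adjusted p = 0.269). The LBW pups were above the ABW pups in all 3, which are named because they passed, where 7.27% of all rows were apart in this direction. In 2 of the 21 genes, *Pdk1* and *Hif1a*, the LBW pups were below the ABW pups, where 10.1% of all rows were. *Hif3a* still passed when any 1 pup was left out, whereas *Slc2a1* was lost without LBW 3, ABW 1 or ABW 3 and with array weights, and *Egln3* without LBW 2 or ABW 3 and with quantile normalization. Without ABW 3 only *Hif3a* passed. *Vegfa* itself stood at 0.06, and *Ldha* and *Eno1* of glycolysis, which had the highest array signal of the list, at -0.0049 and 0.14.

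**Figure D4:**
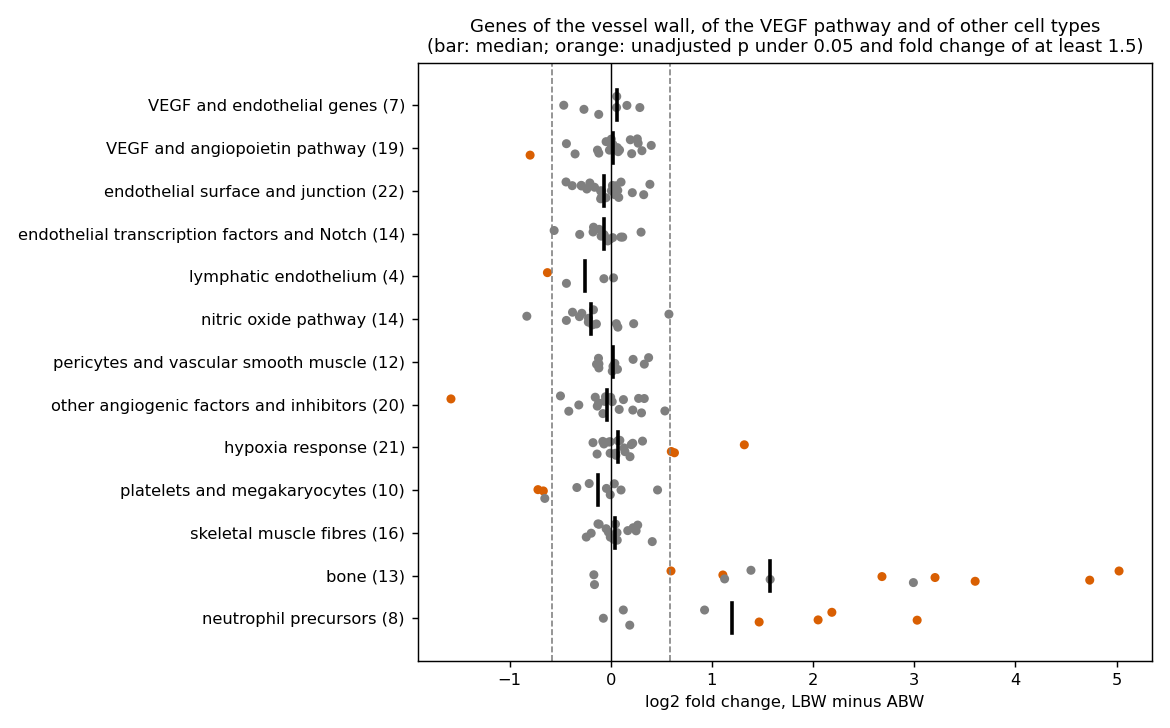
Log2 fold change of LBW over ABW (horizontal axis) of each measured gene in the VEGF and endothelial set and in 12 lists, with the number of genes in parentheses, a bar at the median and dashed lines at a fold change of 1.5. Orange points passed an unadjusted p under 0.05 and that fold change. Medians of the vessel wall lists run from -0.25 (lymphatic endothelium) and -0.20 (nitric oxide pathway) to 0.02, against -0.02 over all rows. Those of the bone and neutrophil lists, which hold genes the study picked on these pups, are 1.58 and 1.20.

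*Pecam1* is also a platelet gene, so platelet and megakaryocyte genes were followed beside it. Of 10 with a row, 2 were lower and 0 were higher past the threshold (1.89% of all rows were lower), *P2ry12*, the platelet ADP receptor also found on microglia and other myeloid cells (-0.72, limma SE 0.25, adjusted p = 0.339), and the platelet chemokine *Ppbp* (-0.67, limma SE 0.26, adjusted p = 0.377). Neither passed without LBW 1 or without LBW 3, *P2ry12* also not without ABW 2 or ABW 3, and *Ppbp* also not without LBW 2 or ABW 1, and neither passed by the methods' test. The mean log2 level of the list was 7.75 to 7.95 in LBW and 7.996 to 8.06 in ABW pups. Macrophage markers, with 0 of 11 past the threshold, had a mean level of 11.58 to 11.77 in LBW and 11.48 to 11.93 in ABW pups. The part of the bone, neutrophil, platelet and adipocyte signals in the values of *Vegfc*, *Vegfd*, *Flt4*, *Ccl21* and *Nos3* was not tested.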

How the data were processed

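RNA from muscle of 3 LBW and 3 ABW pups was hybridized to 6 NimbleGen arrays. The authors deposited log2 values for 26419 transcripts, which their methods say were made in R with their own scripts and Bioconductor packages, and the submitters' processing notes name RMA, which corrects background, normalizes between arrays and combines the probes of a transcript. No raw signals or detection calls were used here. Such normalization would remove any difference common to all transcripts.

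Rows were named by accession through RefSeq's gene table (assembly GRCr8), which matched 9747 rows (36.9%) and 9627 symbols. Rows of a symbol were averaged, which left 26299 rows, and each was tested in R 4.3.3 using limma 3.58.1 (lmFit, then eBayes, 2-sided, Benjamini-Hochberg over all rows). Intervals are 95% intervals of the moderated fit. There is no read depth here, and precision is limited by the number of arrays. The fit was tested on simulated data.

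The genes and lists were chosen with earlier results of these data known. Named are all 7 genes, up to 4 genes of each list past the threshold with the largest change, up to 2 with the highest mean signal in ABW of the vessel and VEGF lists, *Edn1*, and genes stated as picked afterwards. Alternatives were quantile normalization, median centring, a filter on the dimmest 25% of rows, array weights, limma with a trend on intensity or with robust variances, tests without averaging rows of a symbol, the methods' test, a fold change of at least 2, the replicate number as a block and leaving out each pup. The lists also covered cartilage, osteoclasts, erythroid cells and adipocytes.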

Additional observations from a re-analysis of the deposited data

How the results depend on the processing

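None of the 7 VEGF and endothelial genes passed the threshold of the study's methods, or an adjusted p under 0.05, under any alternative run. Of their 105 log2 fold changes under the 15 alternatives, 102 kept their direction, and 3 of *Vegfa* turned, to -0.0199 under array weights, to -0.0796 when LBW 3 was left out and to -0.0309 when ABW 1 was (range when any 1 pup was left out, -0.0796 to 0.2017). The filter, intensity trend, robust variances, methods' test, single rows and replicate block leave these log2 fold changes unchanged. Direction could therefore turn only under the other alternatives. The number of all rows past the threshold was 1124, and it was 584 by the methods' test and 335 at a fold change of at least 2, which can only remove calls. Without any 1 pup it lay between 798 and 1546. With quantile normalization the mean differences of ligands, receptors and endothelial markers were -0.032, 0.036 and -0.0979. With median centring they were -0.0531, 0.0072 and -0.1161. The filter on dim rows, rows taken singly and the replicate block left them unchanged. Leaving out 1 pup, these mean differences ranged from -0.069 to -0.0129, from -0.0332 to 0.062 and from -0.1944 to -0.0243. Among the 12 other genes followed, 146 of 179 values kept their direction and side of the threshold, 27 lost and 6 gained it, and 0 turned. The same limit on changes of direction holds for them. Numbers of pups of the 2 groups were not taken as pairs, because pups sharing a number had deviations that correlated at only 0.087, 0.103 and 0.055, although all 6 pups correlated best with their own number. With the replicate number as a block 1230 rows passed, 1069 of them shared, and 0 of the 7 genes. No background signal was used here, so the distance of low values from it is not known.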

Other observations

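Further lists covered cells that vessels in or beside muscle could share. Of all rows, 2.38% were higher and 1.89% lower in LBW past the threshold of the study's methods. Of 8 cartilage genes with a row, 1 was higher past the threshold of the study's methods, *Acan*, the cartilage proteoglycan (2.07, limma SE 0.84, adjusted p = 0.392), and the median log2 fold change was 0.58. Of 9 osteoclast genes 2 were higher, *Mmp9* and *Acp5*, secreted enzymes of bone resorption, at 2.89 and 1.97 (adjusted p = 0.381 and 0.359 by limma). No erythroid gene of 10 passed, and the median was -0.15. Of 14 adipocyte genes, 4 were lower, *Lep* (-1.57), *Acvr1c* (-1.43), *Pparg* (-1.20) and *Adrb3* (-1.14), and the median was -0.67. All of these 7 genes are among those the study picked on these pups, so they are no independent evidence of direction. The cartilage and osteoclast calls were lost without LBW 1, LBW 3 or any 1 of the ABW pups, and without LBW 2 there were 5 cartilage and 4 osteoclast calls. Adipocyte calls numbered 1 without LBW 1, LBW 3, ABW 2 or ABW 3. By the methods' test there were 0 calls in these 3 lists.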
